A study of Homo sapiens with 4 samples.

Results

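The protein cores of small nucleolar ribonucleoproteins (snoRNPs) were followed in RPE1 cells after an siRNA against SAF-A. The 10 genes were chosen by name, as proteins of box C/D and box H/ACA snoRNPs and their assembly factors. They were FBL, NOP56, NOP58 and SNU13 (C/D core), DKC1, NHP2, NOP10 and GAR1 (H/ACA core), NAF1 (H/ACA assembly) and NOLC1 (a chaperone of both classes). They are 10 of 25027 gene symbols or unmatched identifiers in the deposited tables and 18 of 47338 transcript rows. All 10 reached the minimum average of 1 FPKM across the libraries that was asked of a tested gene, as did 11631 symbols in all. FPKM counts fragments relative to transcript length and to the mapped reads of the library, so levels of different genes can be set side by side per length.

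RPE1 is a human line of retinal pigment epithelial origin that was immortalised by telomerase. All cells were transfected by lipid with a 10 nM Stealth siRNA, either 1 sequence against SAF-A (gene HNRNPU) or the negative control. RNA was taken at 24 h or 48 h, which gave 4 groups of 1 library each, named here by siRNA and time (control 24 h, control 48 h, SAF-A 24 h, SAF-A 48 h). Values given in library order run from control to SAF-A siRNA at 24 h and then from control to SAF-A siRNA at 48 h. No group had a replicate, so no p-value is given, and every difference describes these libraries only.

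Small nucleolar RNAs (snoRNAs) base-pair with ribosomal and other RNAs and direct the proteins bound to them to single nucleotides. Box C/D particles methylate the ribose and box H/ACA particles turn uridine into pseudouridine. Each mature particle needs its full set of core proteins, and the H/ACA set also binds telomerase RNA. Many snoRNAs are made from introns of genes for nucleolar proteins, including some of the core proteins themselves.

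The SAF-A 48 h library was far shallower than the others. The deposited values imply 1216740 mapped reads for it, against 28083822 to 30701282 for the other 3. HNRNPU was at 91.2 and 84.6 FPKM in the control libraries of 24 h and 48 h and at 10.4 and 9.24 FPKM in the SAF-A libraries, low in both libraries labelled SAF-A. Of markers of the labelled cell, KRT8 and KRT18 were present in every library, at 15.4 to 63.9 and 23.3 to 229.1 FPKM, both lowest in SAF-A 48 h. VIM and CDH2, of the same marker list, were at 1586 to 3312 and 51.1 to 81.5 FPKM, both highest in SAF-A 48 h. RPE65 and CDH1 were listed at 0 in all libraries. Of the other retinal pigment epithelium markers, MITF was at 4.23 to 9.01 FPKM and OTX2 at 2.16 to 3.77 FPKM. BEST1, RLBP1, TYR, PMEL and LRAT stayed under 0.97 FPKM in every library. Leukocyte, endothelial, liver, photoreceptor and glial markers stayed at or under 0.347 FPKM.

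One of these genes, NOP56, carries a snoRNA within an alternative part of its own mRNA. All gene positions are given in GRCh37. NOP56 (chromosome 20, 2633178 to 2639039, plus strand, GRCh37) has 2 deposited transcripts. They differ by 180 bases that extend exon 8 in NR_027700 (chr20:2636681-2636860) and are spliced out of the coding transcript NM_006392. The extension holds the whole of SNORD86, with 62 bases before it and 32 after. As background, SNORD86 has been described as a sensor in cis: when core proteins assemble on it in the pre-mRNA, splicing is steered away from the coding form. The extension is shown with SNORD86 in capitals, because the share of this transcript is one of the results.
NOP56 exon 8 extension: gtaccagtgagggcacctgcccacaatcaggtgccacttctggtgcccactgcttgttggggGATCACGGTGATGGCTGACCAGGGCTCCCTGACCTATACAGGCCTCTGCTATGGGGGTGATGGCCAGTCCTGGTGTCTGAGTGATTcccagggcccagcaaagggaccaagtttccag

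NOP56 holds 5 snoRNA rows in all, more than any other member. NOP58 holds 3 and DKC1 holds 2, and no snoRNA row lies within the other 7 genes. The 5 in NOP56 are printed from GRCh37, plus strand, as DNA. In the C/D RNAs the capitals mark the C box (TGATGA, or its closest match near the 5′ end) and the D box (CTGA near the 3′ end), the sites on which SNU13 and then NOP56, NOP58 and FBL assemble. In SNORA51 they mark the ACA near the 3′ end of H/ACA RNAs. SNORD86 and SNORD56 each had 1 mismatch in the C box, and SNORD110 and SNORD57 had none.
SNORD110 (chr20:2634858-2634932): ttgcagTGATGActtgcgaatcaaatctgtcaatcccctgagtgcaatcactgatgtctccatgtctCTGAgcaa
SNORA51 (chr20:2635713-2635844): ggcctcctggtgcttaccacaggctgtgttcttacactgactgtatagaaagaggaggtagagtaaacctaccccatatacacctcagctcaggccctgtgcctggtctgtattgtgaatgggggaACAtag
SNORD86 (chr20:2636743-2636828): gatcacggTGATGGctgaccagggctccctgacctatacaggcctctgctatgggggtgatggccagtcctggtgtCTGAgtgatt
SNORD56 (chr20:2637270-2637340): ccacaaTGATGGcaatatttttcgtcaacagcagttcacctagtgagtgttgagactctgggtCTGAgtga
SNORD57 (chr20:2637585-2637656): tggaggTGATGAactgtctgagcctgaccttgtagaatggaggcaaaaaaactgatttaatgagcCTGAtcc

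**Figure D1:**
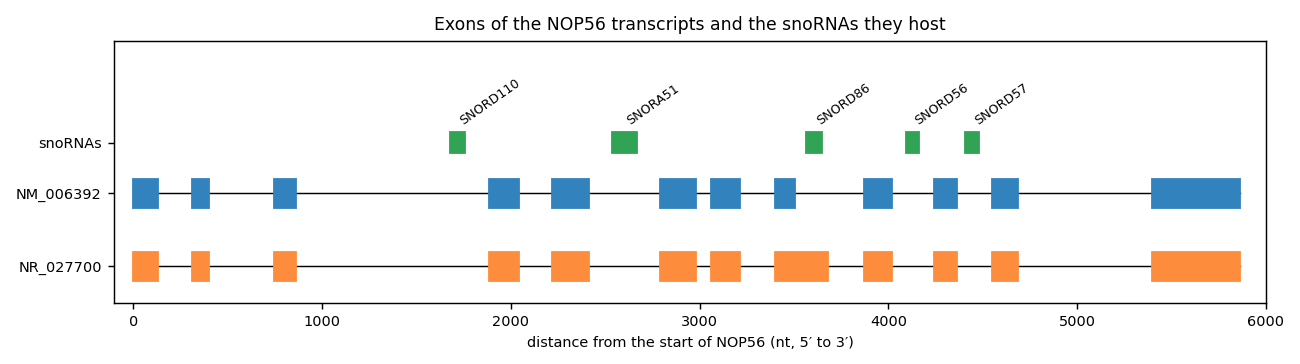
Exons of the 2 deposited NOP56 transcripts (boxes) and the 5 hosted snoRNAs (green) against the distance in nt from the start of the gene. SNORD86 lies over the part of exon 8 that only NR_027700 has, and the other 4 lie in introns of both transcripts.

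In control cells the 10 mRNAs covered a wide range of levels. At 24 h the order ran from NOP56 (146.6 FPKM) through NOP10 (108.3), FBL (84.2), NHP2 (78.9), NOP58 (73.2), NOLC1 (68.5), SNU13 (55.5) and DKC1 (49.6) to GAR1 (14.1) and NAF1 (2.83). The deposited 95% bounds, which cover estimation within a library and not variation between cultures, overlapped between FBL and NHP2, NHP2 and NOP58, NOP58 and NOLC1, and SNU13 and DKC1. These neighbours were therefore not separated. At 48 h the same order held in the control library, and there NOP56 (123.9) and NOP10 (115.0) also overlapped, as did FBL with NHP2 and NOLC1 with SNU13. Among the H/ACA core, NOP10 exceeded GAR1 by 7.67-fold at 24 h and 8.57-fold at 48 h. Among the C/D core the highest exceeded the lowest by 2.64-fold and 2.01-fold. With SAF-A siRNA NOP10 came first, overlapping with NOP56 at 24 h and followed by FBL at 48 h, and the bounds of all neighbours from NOP56 down to GAR1 overlapped at 48 h. The 4 C/D core mRNAs together made up 359.4, 323.3, 354.4 and 233.5 FPKM in library order. The 4 H/ACA core mRNAs made up 250.9, 266.0 and 262.8 FPKM and, with NOP10 alone at 201.1, 278.9 FPKM in SAF-A 48 h.

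With SAF-A siRNA no member reached a 2-fold change at 24 h, while at 48 h NOP56, NHP2 and NOLC1 fell by at least 2-fold and NAF1 was listed at 0. The combination of deposited bounds lay wholly past 2-fold for NOLC1 (27.0% to 46.5% of control) but not for NOP56 or NHP2. No member rose by 2-fold at either time. NOP10 was the highest of the 10 in both SAF-A libraries. The shares of all tested genes past 2-fold were 1.25% lower and 1.83% higher at 24 h, and 20.1% lower and 14.2% higher at 48 h. Among tested genes of at least 300 nt, a length that all members exceed, the 24 h shares were 0.244% and 0.389%. The 4 of 10 members past 2-fold lower at 48 h, or 3 of 9 without NAF1, are to be read against that 20.1%. Fold changes by this count are on the log2(FPKM + 1) scale, which understates changes of low genes. In RNA from bulk cultures, a change in the number of cells of a kind and a change in RNA per cell cannot be told apart.

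Over the members, the log2 change had a median of -0.14 in the 24 h comparison and -0.72 in that of 48 h. Over all tested genes the median was -0.06 at 24 h and -0.12 at 48 h. After rescaling to TPM the 24 h medians were -0.297 for the members and -0.22 for all genes, and after centring on the median of well expressed genes they were -0.083 and -0.002. At 24 h the deposited bounds of the libraries did not overlap for 4 members that were lower (NOP56, NOP58, DKC1 and NOLC1) and for 1 that was higher (NOP10). Bounds were apart for 17.5% of all tested genes on the lower side and 8.98% on the higher side. All 5 of these members also had bounds apart on the same side at 48 h, where different libraries were compared. At 48 h bounds were apart for 7 lower members (6 without NAF1) and 1 higher, against 26.6% and 21.9% of all tested genes. Of all genes lower with bounds apart at 24 h, 55.3% were so again at 48 h, and of those that were higher, 46.6%.

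**Figure D2:**
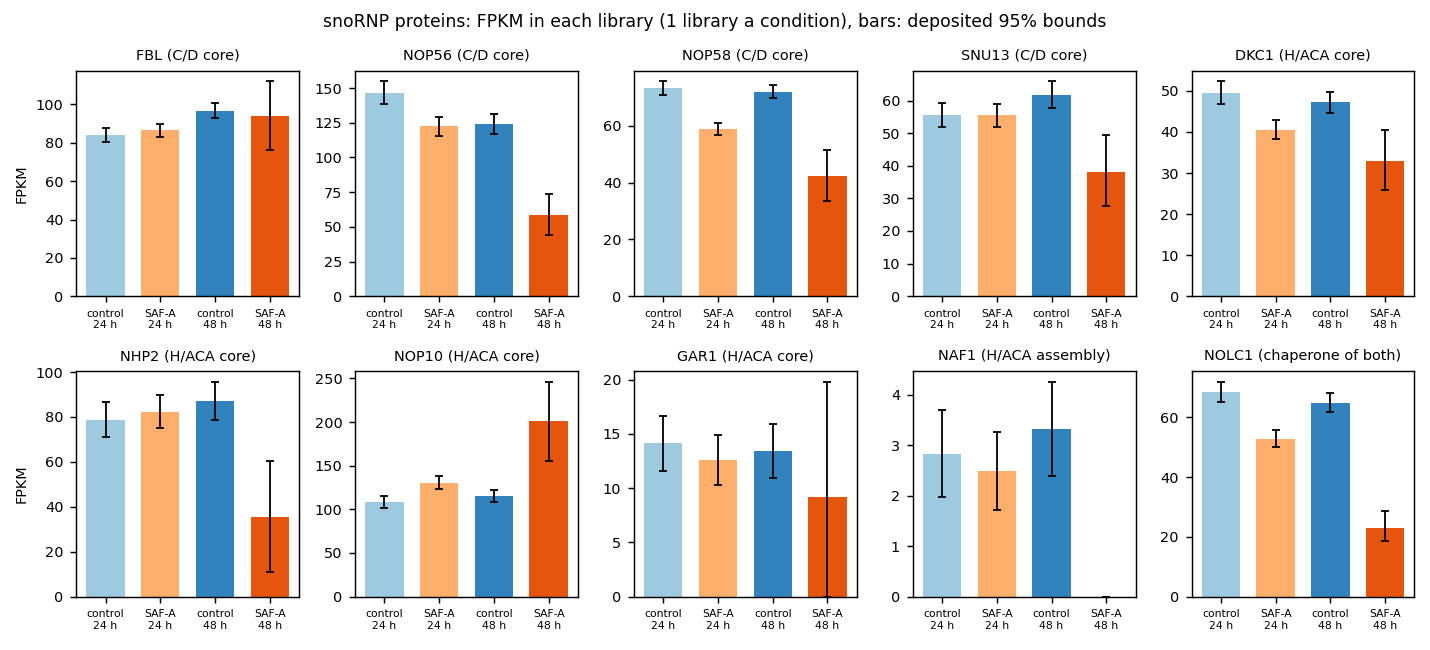
FPKM of each member in the 4 libraries, with the deposited 95% bounds as error bars and 1 library a bar. NOP10 is highest and NOP56, NOP58, SNU13, DKC1, NHP2, GAR1, NAF1 and NOLC1 are lowest in the SAF-A 48 h library, whose bounds are the widest except for NAF1, listed there as 0 with bounds of 0.

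The C/D core proteins were examined first. Fibrillarin (FBL, chromosome 19, 40325093 to 40337054), the methyltransferase of the particle, was at 84.2 (control) and 86.6 FPKM (SAF-A) in the 24 h libraries, and at 96.8 (control) and 94.1 FPKM (SAF-A) in the 48 h ones. Its level with SAF-A siRNA was 102.9% of control at 24 h and 97.2% at 48 h. The combination of deposited bounds put the 48 h value between 75.7% and 120.4%, so no change was detectable at this depth.

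NOP56 and NOP58 are paralogous scaffold proteins that bind the guide RNA and position fibrillarin. NOP56 was at 146.6 (control) and 122.4 FPKM (SAF-A) in the 24 h libraries, and at 123.9 (control) and 58.9 FPKM (SAF-A) in the 48 h ones. It was 83.5% of control at 24 h and 47.5% at 48 h (bounds 33.5% to 63.3%), and its SAF-A 48 h value rested on about 131 reads. NOP58 (chromosome 2, 203130515 to 203168384) was at 73.2, 58.9, 72.0 and 42.5 FPKM in library order. It was 80.5% of control at 24 h (bounds 75.1% to 86.2%) and 59.0% at 48 h (44.98% to 74.0%). Both scaffold mRNAs were thus lower in FPKM with SAF-A siRNA at each time, with bounds apart, while fibrillarin mRNA was not. At 24 h this contrast depended on the scale. After rescaling to TPM the 24 h log2 change of FBL was -0.14, outside its bounds. That of NOP56 was then -0.44 and that of NOP58 -0.49, beside a median of -0.22 for all genes. The ratio of NOP56 to FBL in FPKM was 1.74 with control and 1.41 with SAF-A siRNA at 24 h, and 1.28 and 0.626 at 48 h.

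SNU13 (chromosome 22, 42069937 to 42084913), also called 15.5K, binds the kink-turn formed by the C and D boxes and the same fold in the spliceosomal U4 RNA. It was at 55.5 FPKM in both 24 h libraries, at 61.8 in control 48 h and at 38.05 in SAF-A 48 h. The 48 h level was 61.6% of control, with bounds of 42.2% to 85.6%. SNU13 and FBL therefore shared a 24 h FPKM close to control, and at 48 h SNU13 but not FBL was lower with bounds apart.

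Among the H/ACA core proteins, NOP10 was higher with SAF-A siRNA with bounds apart at both times, unlike its partners. NOP10 (chromosome 15, 34633917 to 34635362) is a very small protein that ties NHP2 to the catalytic subunit. It was at 108.3 (control) and 130.6 FPKM (SAF-A) in the 24 h libraries, and at 115.0 (control) and 201.1 FPKM (SAF-A) in the 48 h ones. Its level was 120.5% of control at 24 h (bounds 107.1% to 135.8%) and 174.9% at 48 h (127.8% to 228.1%, about 82 reads). The SAF-A libraries were the 2 highest of the 4, and the change stayed under 2-fold. The log2 change at 24 h was 0.27 and was 0.08 after rescaling to TPM, which lowered the median of all genes from -0.06 to -0.22.

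DKC1 (dyskerin, chromosome X, 153991031 to 154005964) is the pseudouridine synthase, altered in dyskeratosis congenita. It was at 49.6, 40.6, 47.2 and 32.9 FPKM in library order. It was 81.8% of control at 24 h (bounds 73.3% to 91.4%) and 69.7% at 48 h (52.1% to 90.9%). NOP10 and DKC1 mRNAs thus moved apart: their FPKM ratio was 2.18 with control and 3.22 with SAF-A siRNA at 24 h, and 2.44 and 6.11 at 48 h.

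NHP2 (chromosome 5, 177576465 to 177580961), a relative of SNU13 that binds RNA in the H/ACA particle, was at 78.9, 82.3, 87.2 and 35.6 FPKM in library order. At 24 h it was 104.3% of control with overlapping bounds. At 48 h it was 40.9% of control, with wide bounds of 11.3% to 76.8% from about 26 reads. GAR1 (chromosome 4, 110736666 to 110745893) enters the particle last and helps substrate release. It was at 14.1, 12.6, 13.4 and 9.19 FPKM, and its bounds overlapped between siRNAs at both times, with about 10 reads in SAF-A 48 h.

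The assembly factors included the lowest mRNA of the set. NAF1 (chromosome 4, 164047860 to 164088073) holds the place of GAR1 until the particle matures. It was at 2.83 FPKM in control 24 h, 2.49 in SAF-A 24 h, 3.33 in control 48 h, and was listed at 0 in SAF-A 48 h. At the control 48 h level about 6.90 reads would have come from a library of that depth. In that library 35 of 1412 genes with 2 to 5 FPKM in each of the other 3 libraries, NAF1 among them, were listed at 0, so no fold change is given for NAF1. The deposited bounds for this value are 0 on both sides and do not reflect the depth.

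NOLC1 (Nopp140, chromosome 10, 103911933 to 103923628) is a phosphoprotein that moves between nucleolus and Cajal bodies and binds both classes of snoRNP. It was at 68.5 (control) and 52.8 FPKM (SAF-A) in the 24 h libraries, and at 64.9 (control) and 23.1 FPKM (SAF-A) in the 48 h ones. Its level was 77.2% of control at 24 h (bounds 69.6% to 85.6%) and 35.6% at 48 h (27.0% to 46.5%, about 105 reads). Of the members, NOLC1 had the lowest ratio to control at 24 h, and the lowest at 48 h apart from NAF1. Among tested genes of at least 300 nt, 5.96% had a lower log2 change than NOLC1 at 24 h and 9.11% at 48 h.

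**Figure D3:**
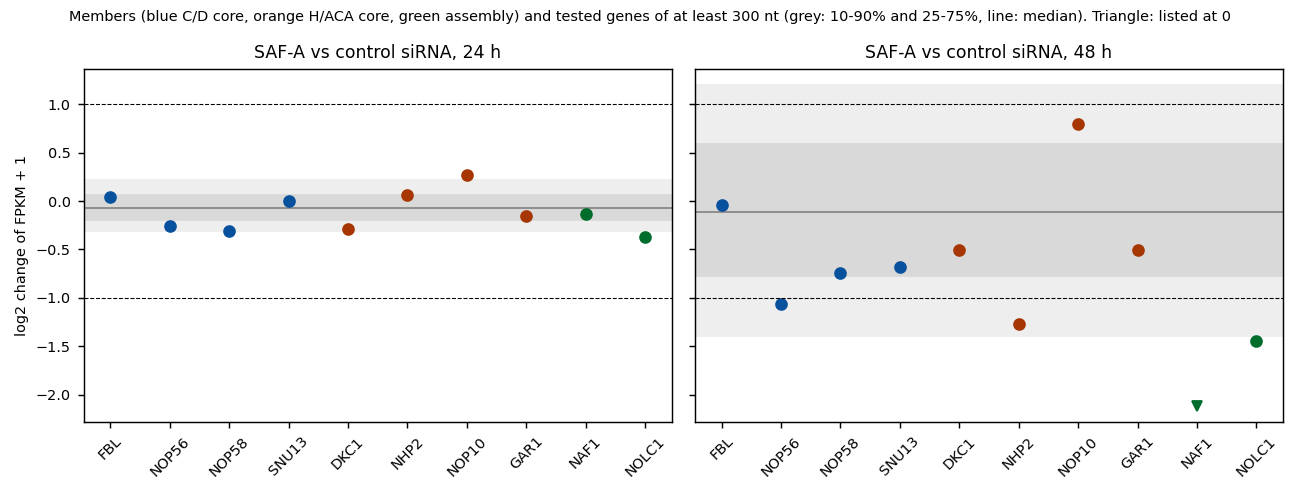
Log2 change of FPKM + 1 with SAF-A siRNA for each member at 24 h (left) and 48 h (right), with dashed lines at 2-fold. Grey bands hold the central 80% and 50% of tested genes of at least 300 nt, and the triangle is NAF1, listed at 0. NOLC1 lies below the wider band at both times, NOP58 lies at its lower edge at 24 h, and NOP10 lies above it at 24 h and within it at 48 h.

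NOP10 has the shortest mRNA of the members (535 nt), and length moved with the change across genes. At 24 h the 342 genes of 300 to 800 nt that averaged 5 FPKM or more had a median log2 change of 0.14, against -0.07 for all 7710 genes of at least 300 nt. The value of NOP10 at 24 h was 0.27, close to the upper quartile of that length class (0.25). At 48 h the class had a median of -0.03 with quartiles from -1.07 to 0.91, and NOP10 stood at 0.80. The part of transcript length in the NOP10 values was not tested.

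Change with time was small in the control libraries. No member moved by 2-fold between 24 h and 48 h with control siRNA, where 1.36% of all genes were lower and 1.79% higher by that rule (0.425% and 0.561% of those of at least 300 nt). Bounds were apart for FBL, at 114.9% of its 24 h level, and for NOP56, at 84.5%. They were apart for 18.3% of all genes on the higher side and 12.8% on the lower. The median log2 change of the members was 0.03, and -0.02 without NAF1, beside 0.03 for all genes.

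With SAF-A siRNA, NOP56, NHP2 and NOLC1 fell by at least 2-fold from 24 h to 48 h, and NAF1 went from 2.49 FPKM to a listed 0. By that rule 17.8% of all genes were lower and 15.1% higher. Bounds were apart for 6 lower members (5 without NAF1) and 1 higher, against 23.8% and 23.5% of all genes. NOP56 was at 48.1% of its 24 h level, NHP2 at 43.3% and NOLC1 at 43.7%. After rescaling to TPM these 3 were under 2-fold and only NAF1 remained past it. NOP10 was at 154.0% and FBL at 108.6%. This comparison shares its 2 libraries with the siRNA comparisons, so it is not independent of them.

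Transcript shares were compared for the members with several rows. For NOP56, the transcript with the SNORD86 extension was at 38.04 (control) and 27.1 FPKM (SAF-A) in the 24 h libraries, and at 33.5 (control) and 6.41 FPKM (SAF-A) in the 48 h ones. Its share of NOP56 was 26.0%, 22.2%, 27.0% and 10.9% in library order, lower with SAF-A siRNA at each time. The coding transcript was at 108.6, 95.3, 90.5 and 52.5 FPKM. The bounds of the extended form were apart between siRNAs at both times (25.05 to 29.2 against 35.4 to 40.7 FPKM at 24 h, 2.01 to 10.8 against 31.04 to 35.9 at 48 h). The last share rested on about 16 reads for the extended form. A shift at least as large as that of NOP56 was found in 60.7% of 3819 genes at 24 h and in 53.7% of 3440 genes at 48 h, so a shift of this size was common in these libraries.

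For NHP2 the minor transcript NM_001034833 lacks exon 3, which is 106 bases long, not a multiple of 3. The exon (chr5:177577889-177577994, minus strand) is shown because the shares turn on it.
NHP2 exon 3: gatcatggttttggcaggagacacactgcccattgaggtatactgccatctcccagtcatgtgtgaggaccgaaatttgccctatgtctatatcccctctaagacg

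The form without exon 3 made up 25.1% of NHP2 with control and 14.1% with SAF-A siRNA at 24 h, and 35.003% and 47.7% at 48 h. The share was thus lower with SAF-A siRNA at 24 h and higher at 48 h, and it differed by 9.91 percentage points between the control libraries alone. A shift at least as large as the 24 h value (11.02 points) was seen in 33.5% of genes, and as the 48 h value (12.7 points) in 58.8%. The SAF-A 48 h share rested on about 11 reads for the form without exon 3 and 15 for the other. For NAF1, NM_001128931 held 43.2% in control 24 h, 68.3% in SAF-A 24 h and 57.7% in control 48 h, from 49, 75 and 79 reads. For GAR1, NM_018983 held 30.2%, 33.3%, 33.7% and 34.9%, the last from about 4 of 10 reads. DKC1, NOLC1 and SNU13 came almost wholly from 1 transcript each (at least 97.8% in every library).

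**Figure D4:**
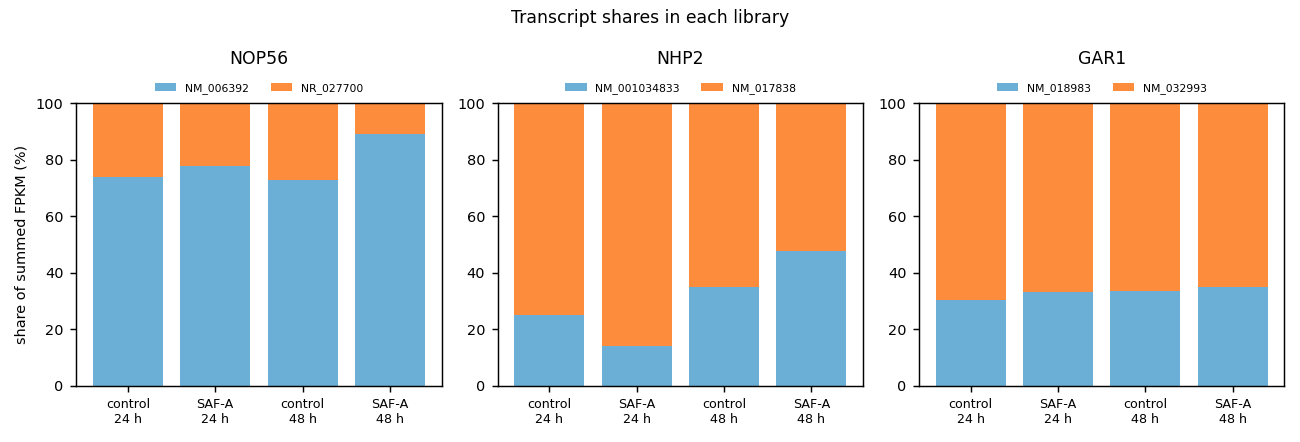
Share of each deposited transcript in the summed FPKM of NOP56, NHP2 and GAR1, in percent, for the 4 libraries. The SNORD86-containing NR_027700 is the smaller part of NOP56 in every library and smallest in SAF-A 48 h, while the GAR1 shares lie between 30.2% and 34.9% for NM_018983.

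The snoRNAs hosted by the members gave very few reads. SNORD110 was at 753.1 FPKM in control 24 h, 1072 in SAF-A 24 h and 1398 in control 48 h, values that rest on 9, 14 and 17 reads by the deposited bounds. SNORA51 was at 60.6, 88.6 and 71.4 FPKM, from 10, 16 and 12 reads. The bounds overlapped between siRNAs at 24 h for both. SNORD57 was at 535.3 FPKM in control 24 h and 420.7 in control 48 h, from 5 and 4 reads, and was listed at 0 in SAF-A 24 h. SNORD56 was at 233.8, 641.6 and 229.7 FPKM from 2, 6 and 2 reads, and in NOP58 SNORD70 was at 178.1, 228.1 and 209.95 FPKM from 5, 7 and 6 reads. The remaining rows (SNORD11, SNORD11B, SNORA36A and SNORA56) rested on at most 3 reads in any library. SNORD86 was at 0 in all 4 libraries to the digits used here, and its bases are also part of the NOP56 transcript that was measured above.

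All 10 snoRNA rows were listed at 0 in SAF-A 48 h. At the control 48 h level SNORD110 would have given 0.724 reads there, and 3 reads in that library would equal 5794 FPKM. The loss of these RNAs was therefore not detectable at this depth. TERC, the telomerase RNA that carries an H/ACA domain bound by dyskerin and its partners, is longer and was better covered. TERC was at 125.4 (control) and 134.1 FPKM (SAF-A) in the 24 h libraries, and at 153.2 (control) and 59.9 FPKM (SAF-A) in the 48 h ones, log2 changes of 0.10 and then -1.34, the last from about 18 reads. TERT, the protein partner, stayed under 1 FPKM in every library, at 0.243 to 0.908.

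Other genes of the pathway were described by lists that name the steps around the particles. The 2-fold counts of each list at 48 h stand beside 20.1% lower and 14.2% higher among all tested genes, and nothing particular to a list is read from them. Of 8 C/D assembly factors, which bring the core proteins together, none was lower and 2 were higher by 2-fold at 48 h, with a median log2 change of 0.03 that fell just below 0 after rescaling to TPM. The highest was ZNHIT3 (34.98 FPKM in control 48 h, 80.7 in SAF-A 48 h) and the lowest was NUFIP1 (3.19 and 1.25). That last value rested on about 5 reads. A list of 7 genes was named for H/ACA assembly and Cajal body factors. It also holds TCOF1, a nucleolar factor of RNA polymerase I transcription. Of the 7, 1 was lower by 2-fold, with a median of -0.32. That gene was TOE1, a deadenylase that processes small RNAs (15.8 and 4.51 FPKM, the last from about 12 reads). PARN, another deadenylase that matures H/ACA RNAs, was the highest (11.9 and 19.4). For both lists no gene was past 2-fold at 24 h, with medians of -0.08 and -0.19.

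A list of 36 genes was named for the SSU processome, the large particle that the U3 C/D snoRNP helps to build on the ribosomal precursor. It also holds WDR12, a protein of large-subunit assembly. Of the 36, 35 had a log2 change below 0 at 24 h, none past 2-fold, with a median of -0.22 (-0.39 after rescaling to TPM). Of all tested genes 62.9% were below 0 at 24 h. At 48 h 4 of the 36 were lower and 2 higher by 2-fold, both under the shares of all genes, with a median of -0.31. BYSL was the lowest (16.6 FPKM in control, 3.22 in SAF-A 48 h from about 7 reads) and UTP4 the highest (8.003 and 17.6). Of 29 proteins of large-subunit assembly and the nucleolus, 26 were below 0 at 24 h (median -0.24, none past 2-fold). At 48 h 9 of the 29 were lower by 2-fold and none higher (median -0.76), beside 20.1% and 14.2% of all genes. RRS1 was the lowest (24.4 and 2.74 FPKM, the last from about 5 reads) and RPF2 the highest (24.3 and 33.1). In the control libraries 24 of these 29 were lower at 48 h than at 24 h, with a median of -0.18, as were 43.6% of all genes.

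Of 20 subunits and factors of RNA polymerase I, which transcribes the ribosomal precursor, 4 were lower and 1 higher by 2-fold at 48 h (median -0.26), the lower count being at the 20.1% of all genes. POLR1G was the lowest (11.8 FPKM in control, 2.37 in SAF-A 48 h from about 9 reads). POLR2F, a subunit shared by all nuclear polymerases, was the highest (13.8 and 37.7). At 24 h none passed 2-fold, and the median was -0.13. MYC, a known activator of many genes of ribosome production, was the lowest at 48 h of 6 tested genes of the MYC network. It was at 30.0 (control) and 24.4 FPKM (SAF-A) in the 24 h libraries, and at 40.8 (control) and 7.98 FPKM (SAF-A) in the 48 h ones. The last value came from about 21 reads. MXI1, a repressor that competes for the partner MAX, was the highest (3.14 FPKM in control and 9.56 in SAF-A 48 h). In this list 2 genes were lower and 3 higher by 2-fold at 48 h (median 0.63), and none at 24 h (median -0.13).

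A list of 6 genes was named for the partners of SNU13 in the U4/U6 snRNP. It also holds PRPF6 and PRPF8, proteins of the U5 snRNP. Of the 6, 1 was higher by 2-fold at 48 h and none lower (median 0.30). PRPF31, which contains a domain related to NOP56 and NOP58, was the highest (31.9 FPKM in control, 73.9 in SAF-A 48 h) and PRPF4 the lowest (28.3 and 14.2). At 24 h none passed 2-fold (median -0.19). Markers of proliferation were measured beside these lists. Of 15, 10 were lower by 2-fold at 48 h and none higher (median -1.05), beside 20.1% and 14.2% of all genes, and none passed 2-fold at 24 h (median -0.16). CCNA2 was the lowest (76.1 FPKM in control, 17.7 in SAF-A 48 h) and AURKB the highest (45.6 and 38.7). The summed FPKM of the 15 was 997.7, 865.4, 938.5 and 503.9 in library order. None of the 15 was at 0 in any library. By sign alone, all 15 proliferation markers had a log2 change below 0 at 48 h, as did 9 of the 10 snoRNP proteins and 54.1% of all tested genes. Those 9 include FBL and GAR1, whose bounds overlapped between siRNAs, and NAF1, for which no fold change is given. The part of proliferation in the result was not tested.

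**Figure D5:**
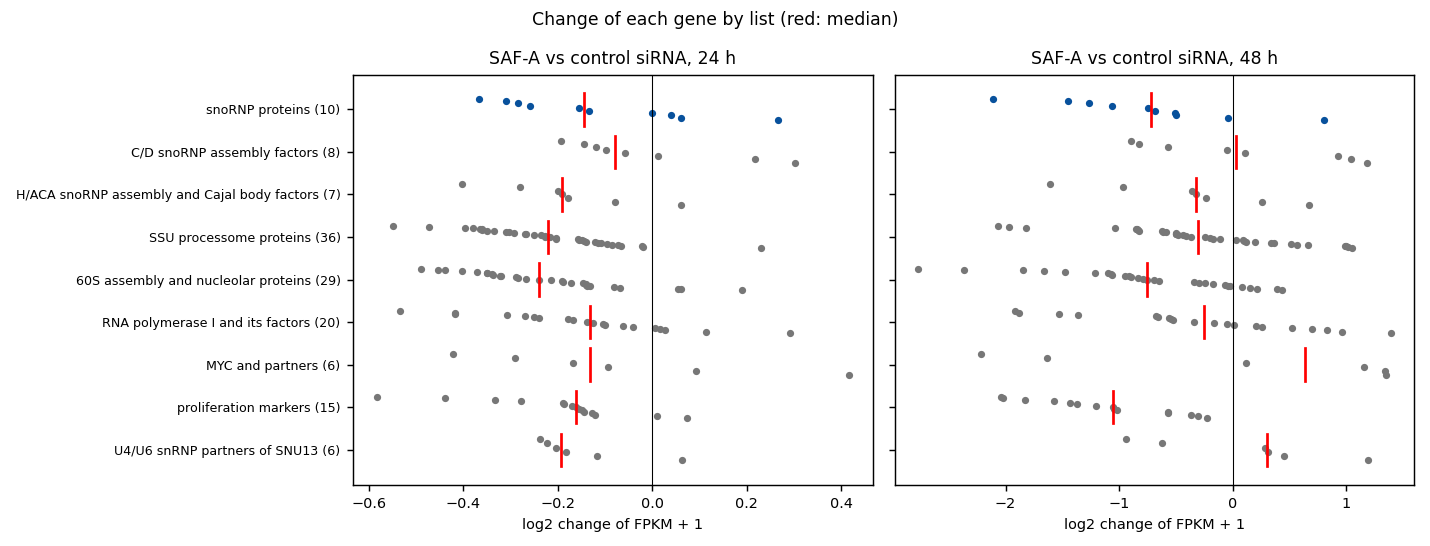
Log2 change of FPKM + 1 with SAF-A siRNA for each tested gene of the members and of 8 lists at 24 h (left) and 48 h (right), without the telomerase list, of which TERC alone was tested, with the number of genes in brackets and red lines at the medians. The horizontal axes have different ranges. At 24 h no gene of these lists reaches 2-fold, and at 48 h the medians run from -1.05 (proliferation markers) to 0.63 (MYC and partners).

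Promoter sequences of RefSeq (GRCh38.p14, 250 bases before to 50 after the start) were found for 6 of the 10 members, with 7 promoters. They were searched on both strands for the E-box CACGTG, the site that MYC and related proteins bind. It was present in 3 of the 7, those of FBL, NOP10 and 1 of the 2 of GAR1, and in 7.26% of all 35116 promoters of that length. The promoters of NOP56, NHP2 and DKC1 did not hold these letters. Of the other motifs searched, the ETS site CCGGAAG was also present for FBL, NOP10 and GAR1 (10.3% of all promoters), in GAR1 in the promoter without the E-box. CCAAT was found for all 6 matched members but DKC1 (34.6%), and the TATA box TATAAA for none (11.5%). FBL and NOP10, the 2 members at 95% or more of the control level at 48 h, were chosen after their values were seen and are printed with the E-box in capitals (chr19:39846330-39846629 and chr15:34343087-34343386, both minus strand). A match is a description of the letters, not a bound site.
FBL promoter: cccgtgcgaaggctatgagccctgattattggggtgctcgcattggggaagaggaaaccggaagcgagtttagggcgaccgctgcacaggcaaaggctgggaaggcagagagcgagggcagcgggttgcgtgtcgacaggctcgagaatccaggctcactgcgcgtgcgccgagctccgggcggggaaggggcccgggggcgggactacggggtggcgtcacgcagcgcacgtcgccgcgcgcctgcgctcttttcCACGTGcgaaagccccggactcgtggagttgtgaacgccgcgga
NOP10 promoter: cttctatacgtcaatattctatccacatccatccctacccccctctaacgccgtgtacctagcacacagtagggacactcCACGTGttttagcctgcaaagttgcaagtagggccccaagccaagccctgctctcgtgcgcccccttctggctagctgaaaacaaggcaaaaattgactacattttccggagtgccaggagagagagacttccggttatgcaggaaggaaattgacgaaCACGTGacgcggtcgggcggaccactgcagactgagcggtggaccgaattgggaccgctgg

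The genes whose 4 levels lay nearest to the mean profile of the members were RWDD2B, TP53RK, LIN54, TIFA and CEP57. Likeness was the Euclidean distance of log2(FPKM + 1) values centred per gene, over 4 libraries. The median distance over the 7687 genes compared was 0.872. The mean profile includes the listed 0 of NAF1 in SAF-A 48 h. RWDD2B, the nearest at a distance of 0.023, was at 17.9, 16.2, 18.4 and 10.4 FPKM in library order. SNU13 (0.141) and NOP58 (0.148) were the members closest to their own mean profile, and NOP10 (1.31) and NAF1 (1.09) the farthest.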

How the data were processed

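RNA depleted of ribosomal RNA was read as 50-base single-end reads in 4 libraries, 1 per condition. The authors deposited FPKM per RefSeq transcript with lower and upper 95% bounds, per the file headers, and the submitters' processing notes name TopHat2 2.0.10, Bowtie2 2.1.0, Cufflinks 2.2.1, Cuffdiff and hg19. Transcript files deposited by the authors also carry another measure, coverage, from which mapped reads were derived. The use of strand and of reads with several matches is not given in the sources used here. Rows were joined to symbols through a RefSeq table of GRCh38.p14 (97.1% matched) and FPKM and bounds were summed per symbol, which makes summed bounds wide. Of 87 introns of the members 86 began with GT and ended with AG in GRCh37.

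Changes are differences in log2(FPKM + 1) among symbols averaging 1 FPKM or more, and changed means at least 2-fold. Ratios in percent are of FPKM, with the most extreme combination of bounds. Estimated reads used a fragment length of 200 ± 80 nt. Of transcripts with 0.5 to 10 estimated reads and at least 300 nt, 74.4% to 83.2% came within 0.1 of a whole read. For snoRNAs, reads were taken from the width of the deposited bounds. Intervals cover estimation within a library only, not variation between cultures. All 10 members were named, and of each list the highest and lowest gene at 48 h. The arithmetic of the 2-fold calls was checked on simulated FPKM without noise, which gives no error rate. The members and lists were chosen with earlier results of these data known. Python 3.11.15, pandas 2.3.3 and numpy 2.4.6 were used.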

Additional observations from a re-analysis of the deposited data

Results flagged for a closer look

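FBL and NHP2 had log2 changes with SAF-A siRNA of opposite sign at 24 h and 48 h. For FBL the values were 0.0403 and -0.0401, and the deposited bounds overlapped at both times. For NHP2 the values were 0.0604 and -1.27, with bounds that overlapped at 24 h only. The difference between the times was not tested, there being a single library for each condition. Rescaling to TPM turned both 24 h values negative, to -0.14 and -0.12.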

How the results depend on the processing

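Alternatives were a pseudocount of 0.1, rescaling to TPM, centring by the median of genes averaging 5 FPKM or more, a 1.5-fold threshold, bounds that must not overlap and, for all genes, other filters. Leaving out NAF1, and the alternatives for single members and lists, were chosen after seeing the data. The 16 alternative medians of the members lay within the combined deposited bounds, which are wide: by TPM the median went from -0.14 to -0.297 at 24 h and from -0.50 to -0.27 over time with SAF-A siRNA. By TPM the 24 h list medians became -0.39 (SSU processome), -0.42 (large subunit) and -0.37 (U4/U6). The control time median of the members, 0.03, changed sign with centring and without NAF1 (-0.02). Of 48 alternative counts of members, 45 stayed within 1.5 times the reported count. Part of this was fixed in advance. Where no member was past 2-fold, also requiring bounds apart or leaving out NAF1 could not raise the count. Centring left the 48 h changes against control as they were. The tally is therefore not a measure of robustness. A 1.5-fold threshold gave 1 higher member (NOP10) at 48 h against control and 1 over time with SAF-A siRNA, where none was past 2-fold. Rescaling to TPM left 1 lower member over time with SAF-A siRNA in place of 4. TPM moved the median of all genes from -0.06 to -0.22 at 24 h and from -0.02 to 0.14 over time with SAF-A siRNA. On that scale NOP10 stood at 0.08 and NOP58 at -0.49 at 24 h. Of 120 alternative values of single members, 112 lay within their bounds. Those outside were NAF1 values with a pseudocount of 0.1 and the TPM values of FBL, NOP56, NOP58, DKC1, NOP10 and NOLC1 at 24 h. They include every member with bounds apart at 24 h, so the deposited bounds do not cover the choice of scale. Of all-gene counts 20 of 24 stayed within 1.5 times. Requiring at least 300 nt left 27 lower and 43 higher genes at 24 h. No paired analysis was possible because each condition had 1 library and the labels give no replicate numbers. In SAF-A 48 h, depth limits NAF1, GAR1, NHP2 and all hosted snoRNAs. Of the named list genes, TERC, TERT, NUFIP1, TOE1, BYSL, RRS1, POLR1G and MYC had fewer reads there than NHP2 and are limited too.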

Other observations

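The precursor row of MIR1292, a microRNA that overlaps an exon of NOP56, was listed at 0 in control 24 h and in SAF-A 48 h. It was at 1229.9 FPKM in SAF-A 24 h and 566.1 FPKM in control 48 h, from 6 and 2 reads by the deposited bounds, too few to compare the libraries. MIR664B, inside SNORA36A in DKC1, was listed at 0 in all 4 libraries.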
